A study of Mus musculus with 24 samples.

Results

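In the comparison of Tet2-KO with WT mES cells after control siRNA, 178 windows of 100 bp combined a very high MeDIP signal in WT cells with a signal that was higher still in the KO. They were taken from 14279 windows that the authors' comparison of the same libraries had listed as different. Members were selected on these measured values: a listed window was included when it lay outside chromosomes 1, 12, 15, X and Y and the mitochondrial genome, when its reads summed to 600 or more over the WT siNC libraries, and when its mean RPKM (reads scaled to the window's length in kilobases and to the size of the library) was higher in Tet2-KO than in WT siNC. On the sequences included, 370 listed windows reached that depth, of which 178 (48.1%) were higher in Tet2 KO and 192 were lower. Over all listed windows 2414 (16.9%) were higher. The depth and the direction of these windows were therefore set by how they were chosen, and the fold changes between Tet2-KO and WT siNC cells are given as a description with no test.

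MeDIP-seq pulls down DNA fragments with an antibody against 5-methylcytosine (5mC) and sequences them, here in mouse embryonic stem (mES) cells. The libraries were 3 per group, from WT mES cells with control siRNA (siNC), WT with siRNA against Nsun2 (siNsun2), Tet2 KO with siNC and Tet2 KO with siNsun2, and from Pspc1-KO cells and a separate set of WT libraries, both without a labelled siRNA. TET2 oxidizes 5mC, NSUN2 methylates cytosines in RNA, and PSPC1 is a paraspeckle component that binds RNA. The labels give embryos as the tissue, and the number of clones behind each KO line was not given in the sources used here. All cells grew with LIF, a GSK3 inhibitor and a MEK inhibitor. The WT and Tet2-KO lines were gifts of another laboratory, and feeder cells had been removed by passage on gelatin. Library totals, recovered from the files, were 11.5 to 15.4 M reads for WT siNC, 8.92 to 14.2 M for Tet2-KO siNC, and 8.92 to 39.8 M over all IP libraries. Inputs, sequenced without the antibody, were analysed only for the Pspc1 experiment, so a difference in copy number between WT and Tet2-KO cells cannot be told apart from a difference in 5mC at these windows. At the 5 listed windows of the Tet2 gene, all in exons, the WT siNC libraries held 62, 83 and 78 reads and each Tet2-KO siNC library held 0. At the members, Tet2-KO siNC library 1 differed from libraries 2 and 3 (chi-square per degree of freedom 6.38 and 6.67) by more than those did from each other (1.64), and without it the members numbered 178 with a median log2 fold change of 0.31, against 0.29 with it. In WT siNC the same values were 1.81 and 3.06 for library 1 against the other two and 1.69 between those, and without library 1 the members numbered 178 with a median of 0.27. The study describes the replicates behind its genome-wide data as biological.

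Tandem repeats make up much of the DNA around mouse centromeres. The major (gamma) satellite is AT-rich, fills the pericentromeric heterochromatin of nearly every mouse chromosome, and carries CpG sites that are heavily methylated in most somatic cells. Most of it is missing from the reference assembly, in which each telocentric chromosome starts with a stretch of unknown bases. Reads from the genomic copies can be placed only on the few copies that the assembly contains.

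Sequence, which the choice of windows had not used, divided the members into 7 families. Deep windows, extended by 100 bases on each side, were linked when they shared at least 20 distinct 12-base words on either strand. One family held 148 of the 178 members (83.1%), and all 148 of its deep windows were members, so none was lower in Tet2 KO. Its windows resembled themselves best when shifted by 234 bases in 114 of 148 cases, and within 1 base of that shift in 131. The mouse major satellite is known for a monomer of 234 bases, and the family is called the satellite family here, although no repeat annotation was used. Among the 192 deep windows lower in Tet2 KO, 3 had such a shift, and so did the 3 Gm8038 members of another family. Over the 114 windows a median of 75.4% of bases were identical at that shift, against 32.2 to 33.2% in Gm8038. The chr2 window of the satellite family repeated best at 231 bases (42.2%), and windows of contig GL456389 most often at 58 (median 49.7%). Among the remaining 30 members, those described here lay in Thada (12), Sfi1 and its neighbour Gm12735 (5), the Gm4782 and Gm8038 pair (4), a family shared by Gm8828 and Gm45368 (2), and Itgad (1).

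The sequences of the deepest 234-base repeat windows show that likeness directly. They are RefSeq's GRCm38.p6 (mm10) sequence, 5′ to 3′ on the plus strand, with CpG sites, the targets of DNA methylation, in capitals. The 2 longest hold a full repeat unit and part of the next.
Start of chromosome 9, around its deepest window, chr9:3000301-3000600: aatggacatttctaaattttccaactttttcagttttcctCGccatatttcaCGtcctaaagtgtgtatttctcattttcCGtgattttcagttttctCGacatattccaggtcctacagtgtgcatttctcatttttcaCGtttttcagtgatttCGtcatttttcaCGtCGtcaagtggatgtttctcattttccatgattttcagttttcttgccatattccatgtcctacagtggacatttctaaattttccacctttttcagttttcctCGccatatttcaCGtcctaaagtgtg
Contig JH584304, around its deepest window, chrUn_JH584304:109101-109400: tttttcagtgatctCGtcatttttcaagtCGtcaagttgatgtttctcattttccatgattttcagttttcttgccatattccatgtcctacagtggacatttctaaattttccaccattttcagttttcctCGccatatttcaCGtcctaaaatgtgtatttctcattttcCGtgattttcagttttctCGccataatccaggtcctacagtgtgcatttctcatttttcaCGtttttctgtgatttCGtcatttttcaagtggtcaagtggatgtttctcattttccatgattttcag
Gm21738 intron, chr14:19418101-19418200: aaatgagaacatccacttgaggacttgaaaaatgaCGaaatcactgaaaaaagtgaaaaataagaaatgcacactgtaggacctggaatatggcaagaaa
Contig GL456392, chrUn_GL456392:22201-22300: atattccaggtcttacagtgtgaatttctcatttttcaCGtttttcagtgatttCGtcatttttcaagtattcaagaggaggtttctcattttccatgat
Contig GL456389, chrUn_GL456389:10601-10700: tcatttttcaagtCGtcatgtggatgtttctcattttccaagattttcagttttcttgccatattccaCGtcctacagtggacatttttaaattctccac
Gm10801 exon, chr2:98663901-98664000: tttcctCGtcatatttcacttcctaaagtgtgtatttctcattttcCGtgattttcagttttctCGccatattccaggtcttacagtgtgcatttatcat
Compared without gaps and on both strands with the 300 bases around the deepest window, the 148 windows had a median of 94% identical bases (range 41 to 100%). Medians by sequence were 95% for chromosome 9, 95% for contig JH584304, 93% for contig GL456392, 91% for contig GL456389 and 91% for chromosome 14, and the chr2 window reached 95%. The 30 other members had a median of 38% (33 to 48%), and the 192 deep windows lower in Tet2 KO a median of 37% (31 to 49%). More than 50% of bases were identical in 147 members and in 0 of the 192 windows lower in the KO.

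**Figure D1:**
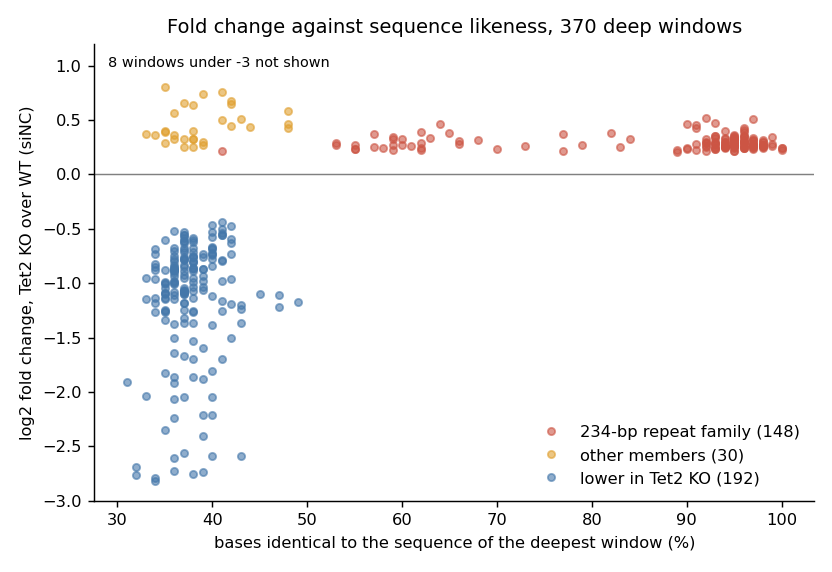
Log2 fold change of mean RPKM (Tet2 KO over WT, siNC) against the percentage of bases identical to the sequence around the deepest window, for the 370 deep windows on the included sequences, each point 1 window. The 148 windows of the 234-base repeat family (red) lie above 0 and mostly to the right, the 30 other members (orange) lie above 0 on the left, and the 192 windows lower in Tet2 KO (blue) lie below 0 on the left, of which 8 are under -3 and not drawn.

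The members outside this family had other sequences, 1 or 2 windows of which are printed per locus for comparison with the satellite units.
Thada intron, around its deepest window, chr17:84463101-84463400: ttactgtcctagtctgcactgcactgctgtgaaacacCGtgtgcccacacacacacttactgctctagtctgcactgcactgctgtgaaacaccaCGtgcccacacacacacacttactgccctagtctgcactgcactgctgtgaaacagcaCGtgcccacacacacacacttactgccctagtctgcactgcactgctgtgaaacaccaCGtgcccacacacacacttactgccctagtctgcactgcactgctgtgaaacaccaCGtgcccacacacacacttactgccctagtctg
Thada intron, the window with the largest fold change, chr17:84460901-84461000: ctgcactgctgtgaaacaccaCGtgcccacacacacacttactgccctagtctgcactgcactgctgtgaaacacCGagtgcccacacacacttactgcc
Itgad intron, chr7:128187901-128188000: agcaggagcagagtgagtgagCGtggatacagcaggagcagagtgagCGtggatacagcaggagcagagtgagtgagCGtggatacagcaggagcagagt
Gm8038 exon, chr6:50621001-50621100: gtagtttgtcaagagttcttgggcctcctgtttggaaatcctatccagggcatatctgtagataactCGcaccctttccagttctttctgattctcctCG
Gm45368 intron, chr8:37342501-37342600: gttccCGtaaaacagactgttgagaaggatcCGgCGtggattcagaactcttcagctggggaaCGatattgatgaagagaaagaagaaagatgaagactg
Sfi1 exon, chr11:3193401-3193500: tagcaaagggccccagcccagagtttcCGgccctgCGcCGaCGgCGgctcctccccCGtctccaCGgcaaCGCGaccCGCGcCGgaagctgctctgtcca
The Thada windows repeated best at a shift of 56 bases in 8 of 12 cases and the Itgad window at 30 bases. The Sfi1 and Gm12735 windows showed no comparable tandem repeat, with at most 32.7% of bases identical at any shift tested.

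Base composition followed the families. The satellite windows had a median GC content of 35% and 2 CpG sites (range 1 to 6), against 55% GC and 3.5 CpG sites (1 to 12) in the 30 other members, and 55% GC and 4 CpG sites over all listed windows. The reference masked 100 of the 148 satellite windows (67.6%) completely as repeats, against 13 of the 30 others (43.3%), 56.7% of all listed windows and 50 of the 192 deep windows lower in Tet2 KO. The middle 32 bases of a satellite window occurred a median of 10 times in the reference (range 1 to 205), and once in 25 windows. Telomeric hexamers in tandem were found in 0 members. The authors' aligner reported a single best position per read, so a signal at a multi-copy window stands for the copies together, and neighbouring or near-identical windows are not independent measurements.

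The deepest of all listed windows was a satellite window, and the satellite signal was higher in all 3 Tet2-KO libraries. The mean RPKM over the 148 windows was 6035, 6470 and 6197 in the WT siNC libraries and 7527, 7546 and 7482 in the Tet2-KO siNC libraries. The groups did not overlap, and the KO libraries lay closer to each other than the WT libraries did. The means were 6234 ± 220 and 7519 ± 33.0 (SD, n = 3), a ratio of 1.21. Reads counted in these windows amounted to 9.23 ± 0.325 per 100 library reads in WT siNC and 11.1 ± 0.0488 in Tet2-KO siNC (SD, n = 3), where a read that spans a window border may count in both windows.

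**Figure D2:**
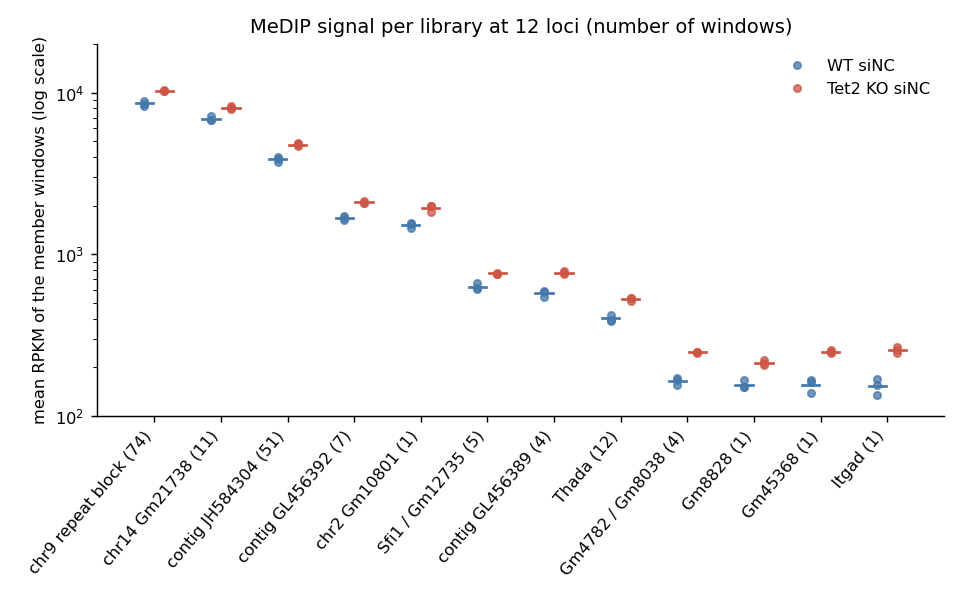
Mean RPKM of the member windows at 12 loci (number of windows in brackets) on a log axis, with 1 point per library and a bar at the group mean, for WT siNC (blue) and Tet2-KO siNC (red). The 3 KO points lie above the 3 WT points at each locus shown, from 8570 against 10283 RPKM on average at the chr9 block to 153 against 256 RPKM in Itgad.

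The chr9 block held 74 of the satellite windows. It spanned chr9:3000001-3037700 and its first window began at the first sequenced base after 3000000 unknown ones. The deepest window of all, chr9:3000401-3000500 in an exon of the lincRNA gene Gm26870, measured 37357, 38898 and 36377 RPKM in WT and 45940, 43431 and 42359 RPKM in Tet2 KO. Every KO value exceeded every WT value there, with means of 37544 ± 1271 and 43910 ± 1838 RPKM (SD, n = 3) and a log2 fold change of 0.23. The annotation places 46 windows of the block in exons and 27 in introns of Gm26870 and of 8 predicted protein-coding genes (Gm10715, Gm10717, Gm10718, Gm10719, Gm10720, Gm10721, Gm10722 and Gm11168), and 1 window 182 bp from Gm26870. The median log2 fold change of the block was 0.27 (range 0.22 to 0.47).

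The fold change was not even along the block. Gm10719 (11 windows, median 0.25), Gm10722 (10 windows, 0.26), Gm10721 (3 windows, 0.26) and Gm26870 (36 windows, 0.26) had the lower values, and Gm10715 (3 windows, 0.37) the highest. Within Gm10718 the adjoining windows at chr9:3024901-3025200 stood above the rest. At chr9:3024901-3025000 the WT libraries measured 1477, 1596 and 1594 RPKM and the KO libraries 2027, 2216 and 2229 RPKM, a log2 fold change of 0.47. The groups were clear of each other by more than the spread within either. The smallest difference of the block, 0.22, was found at chr9:3024601-3024700, which was much deeper, at 8719 ± 262 RPKM in WT and 10123 ± 266 RPKM in the KO (SD, n = 3).

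**Figure D3:**
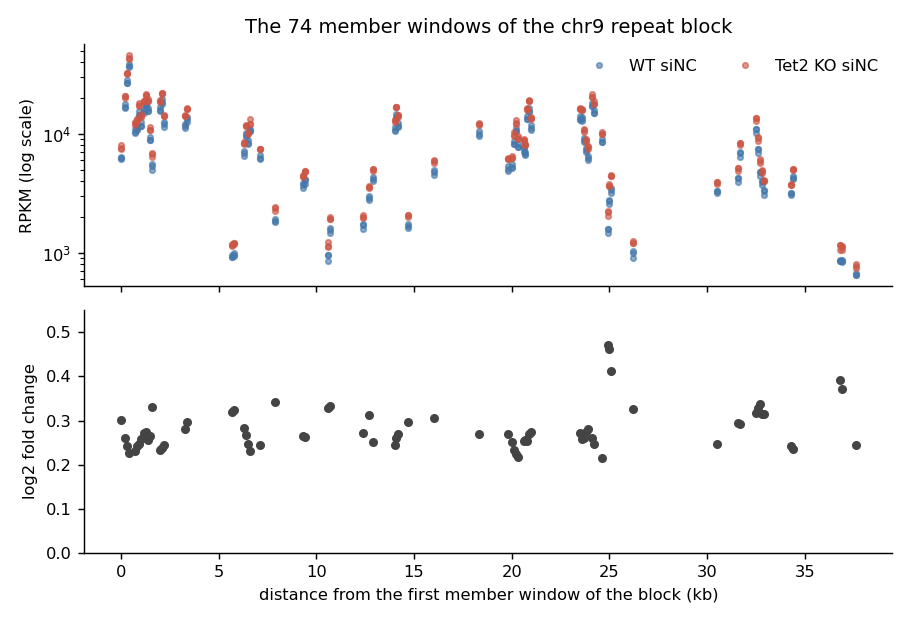
RPKM of the 74 member windows of the chr9 block in each WT (blue) and Tet2-KO (red) siNC library on a log axis (top), and their log2 fold change (bottom), by distance in kb from the first window. Red points lie above blue ones at all 74 windows, and the fold change stays between 0.22 and 0.47, with its highest values about 25 kb into the block.

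Contig JH584304, 114452 bases long and not placed on a chromosome, held 51 satellite windows between positions 68501 and 111800. The nearest annotated gene was 8811 bp away. Their median log2 fold change was 0.30 (0.23 to 0.52). The deepest, chrUn_JH584304:109201-109300, measured 7804, 8450 and 8278 RPKM in WT and 9740, 10404 and 10494 RPKM in the KO. The largest fold change among satellite windows, 0.52, belonged to the shallowest one, at 73701, with 186, 182 and 185 RPKM in WT against 259, 282 and 253 RPKM in the KO. Both windows showed KO libraries wholly above WT libraries, at depths that differed widely.

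The smaller satellite loci were higher in Tet2 KO as well. On chromosome 14, 11 windows at and near the predicted gene Gm21738 (chr14:19415601-19419500) had a median log2 fold change of 0.22 (0.21 to 0.28), the lowest of any locus. The deepest of them, chr14:19418101-19418200 in an intron, rested on 11150, 11719 and 11084 RPKM in WT and 13742, 12935 and 12926 RPKM in the KO. Contig GL456392 held 7 windows with a median of 0.34 (0.26 to 0.38), and contig GL456389 held 4 with a median of 0.41 (0.39 to 0.46). Gm10801 on chromosome 2 held 1 exon window, chr2:98663901-98664000, with 1445, 1563 and 1541 RPKM in WT and 1976, 1837 and 1989 RPKM in the KO, a log2 fold change of 0.35. Outside the members, 1 more listed window of any depth shared this sequence, on chromosome 6, and it was lower in Tet2 KO.

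Thada, which encodes a protein linked to thyroid adenoma translocations and energy metabolism, carried 12 members in an intron at chr17:84459301-84463500. All 16 listed windows of its 56-base repeat, shallow ones included, were higher in Tet2 KO. The median log2 fold change was 0.37 (0.29 to 0.81), and the largest value of any member was at chr17:84460901-84461000. There the WT libraries measured 199, 175 and 169 RPKM and the KO libraries 276, 350 and 323 RPKM. The KO libraries lay above the WT ones but were spread more widely, with means of 181 ± 15.6 and 316 ± 37.8 RPKM (SD, n = 3). The middle 32 bases of these Thada members occurred 2 to 53 times in the reference. Deep windows elsewhere in a Thada intron, at chr17:84269301-84269600 and outside this repeat, were lower in Tet2 KO (log2 fold changes -1.18 to -1.10).

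Sfi1, whose product binds centrin at centrosomes, held 2 exon windows at chr11:3193301-3193500, and the neighbouring gene Gm12735, annotated as antisense RNA, held 3 at chr11:3193601-3193900. Across the 5, the mean was 660, 612 and 617 RPKM in WT and 769, 758 and 757 RPKM in the KO, with a median log2 fold change of 0.28 (0.25 to 0.33). These windows were unmasked and their middle 32 bases occurred once in the reference, although their depth was far above that of most listed windows.

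The shallowest members had some of the largest fold changes. Itgad, which encodes an integrin alpha subunit of leukocytes, held 1 intron window, chr7:128187901-128188000, with 135, 169 and 154 RPKM in WT and 243, 257 and 267 RPKM in the KO, a log2 fold change of 0.74. The processed pseudogene Gm8038 held 3 exon windows at chr6:50620801-50621100, where the last reached 0.76 from 154, 152 and 163 RPKM in WT and 278, 248 and 269 RPKM in the KO. Its relative Gm4782 held 1 exon window at 0.40. In that family 10 deep windows were lower in Tet2 KO and 4 were higher, and over its 26 listed windows of any depth 16 were higher and 10 lower, so the direction differed between near relatives. Gm45368 on chromosome 8 (0.68) and Gm8828 on chromosome 6 (0.45) each held 1 intron window of a sequence that 1907 listed windows shared. Of those 1907 windows 423 were higher and 1484 lower in Tet2 KO, and of its 39 deep windows 37 were lower.

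Deeper members had smaller fold changes, in a list that a shallow window enters only with a larger fold change than a deep one needs. The 17 windows between 100 and 300 RPKM had a median log2 fold change of 0.52 (0.33 to 0.81), the 29 between 300 and 1000 RPKM had 0.36 (0.24 to 0.58), and the 132 above 1000 RPKM, all of them satellite windows, had 0.27 (0.21 to 0.47). As a description over windows that share libraries and reads, Spearman's rho between log2 fold change and log2 WT RPKM was -0.69 over 178 members, -0.58 within the 148 satellite windows and -0.77 within the 30 others. WT RPKM enters both measures and chose the members, and the list was cut at an adjusted p-value, so nothing is read from the trend. The smallest log2 fold change of a member rounded to 0.21, and the deep windows lower in the KO began at -0.44.

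**Figure D4:**
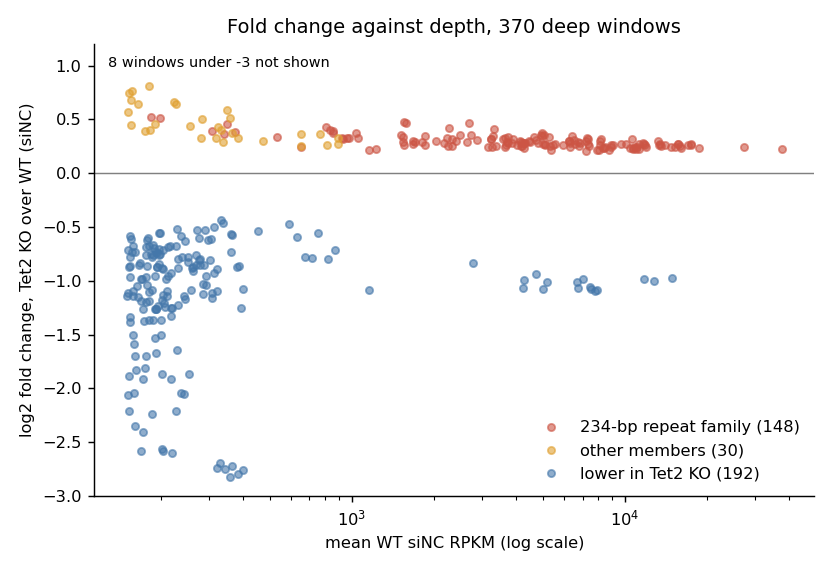
Log2 fold change of mean RPKM (Tet2 KO over WT, siNC) against mean WT siNC RPKM on a log axis for the 370 deep windows, each point 1 window. The 148 satellite windows (red) form a narrow band that falls towards 0.21 at the right, the 30 other members (orange) lie at the shallow end, and the 192 windows lower in Tet2 KO (blue) reach down past -3, where 8 are not drawn.

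Over all 178 members the median log2 fold change was 0.29 ± 0.015 (SD over the 3 KO libraries, each against the WT mean), from 0.28, 0.31 and 0.30 in KO libraries 1, 2 and 3. Each KO library exceeded the WT mean at 178 of 178 windows, and all 3 exceeded all 3 WT libraries at 178 windows. This separation is a property of the list, because all 2414 listed windows that were higher in Tet2 KO (16.9%) showed it too. The 2236 other windows higher in the KO had a median of 4.47 RPKM in WT and 25.6 RPKM in the KO, against 3796 and 4687 RPKM for the members. Scaled by TMM or DESeq2 size factors over the listed windows, whose median log2 fold change was -2.59 by library totals, the members' median was 2.20 and 2.17, so its size depended on the scaling. Such factors raise the KO over WT value of all windows of that list together, so a value already above 0 could not turn. At the depth limit the closest windows outside, with 592 and 591 WT reads, had log2 fold changes of 0.58 and 0.57, and the closest inside, with 610 and 618 reads, had 0.57 and 0.74. The authors' relative methylation score, which corrects the signal for CpG density on a scale from 0 to 1, had a median of 0.952 in WT and 0.958 in Tet2 KO. It was higher in the KO at 103 members and equal at 69. In the satellite windows alone the medians were 0.97 in WT and 0.977 in Tet2 KO, close to the top of the scale.

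None of the members lay on or within 5 kb of the 18 genes of the DNA and RNA methylation machinery, the 13 pluripotency genes or the 10 germline genes examined, near which 6, 7 and 10 listed windows lay. Of 6 multicopy loci, Sfi1 and Drg1 had the 5 chr11 members within reach, out of 16 listed windows near that list. Annotated short RNA genes were near 5 members, through Mir101c, against 3.60% of all listed windows. By position, 57 members were in exons, 52 in introns and 69 between genes or on contigs without genes.

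Of the 178 members, 35 were also listed in another comparison, 1 of them (in Sfi1) in both of 2 others, and 143 were not. Each of those lists held only windows that the authors had called different in that comparison, so a listed member was bound to show a difference and an unlisted one cannot be read as unchanged. Counts of each list were tested again by the quasi-likelihood method of edgeR, with Benjamini-Hochberg adjustment over the whole list.

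After siNsun2 in WT cells, all 22 members listed were satellite windows, and all 22 rose (adjusted p from 0.000227 to 0.00796, edgeR). In that list 31 of 31 windows were called higher (100%), so the count says nothing particular of the members. Of the 31 windows, 29 (93.5%) belonged to the satellite family, on chromosomes 2, 9, 13 and 14 and contigs GL456392 and JH584304. The rise of the 22 members was small, with log2 fold changes from 0.10 to 0.18 (SE 0.034 to 0.043) and a median of 0.14, a fold of 1.10. Over all 29 satellite windows the log2 fold changes reached 0.29, at 2 windows of chromosome 13 that were no members. The list also held a window of the Sfi1 locus that was no member, chr11:3193101-3193200, which was called higher with a log2 fold change of 0.42 ± 0.039 (SE), and also with TMM factors (0.28) and DESeq2 size factors (0.27). The strongest of the 22 members, at 86301 of contig JH584304, went from 1026, 1073 and 1068 RPKM with siNC to 1143, 1222 and 1210 RPKM with siNsun2, a log2 fold change of 0.18 ± 0.042 (SE). At chr9:3025001-3025100 in Gm10718, values of 2574, 2779 and 2698 RPKM with siNC compared with 2919, 3033 and 3026 RPKM with siNsun2. All 3 siNsun2 libraries exceeded all 3 siNC libraries at each of the 22 windows. The list holds only windows called different, and the share of all 31 so separated was not counted, so nothing particular of the members is read from it. Libraries 2 and 3 of WT siNsun2 differed by less than the sampling noise (chi-square per degree of freedom 0.458) and count as 1 sample in a mean, so at this Gm10718 window the siNsun2 mean was 2974 ± 78.1 RPKM (SD, n = 2). With their reads summed into 1 sample, 21 of 22 windows were called.

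The calls in WT rested on scaling by library totals. When the libraries were instead scaled by TMM or DESeq2 size factors over the 31 listed windows, 0 of the 22 were called by edgeR and the median log2 fold change was -0.00013 and -0.0047. Over all 31 windows edgeR then called 2 in each case, and 4 and 5 had an unadjusted p under 0.05. Because nearly every listed window was of the same satellite, such factors remove a change that the satellite windows share.

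Set side by side by library-total scaling, the siNsun2 level in WT lay between WT siNC and Tet2-KO siNC at 22 of 22 windows. All 31 windows of the siNsun2 list were called higher, and the members were chosen as higher in Tet2 KO. A level above WT siNC was thus given in advance, and only the order of WT siNsun2 and Tet2-KO siNC was free. With TMM factors the median siNsun2 change was -0.00013. At the Gm10718 window the means were 2684, 2974 and 3700 RPKM in that order, and at the Gm10801 window on chromosome 2 they were 1516, 1691 and 1934 RPKM. Both comparisons share the WT siNC libraries, and the 3 groups together were compared by no test.

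After siNsun2 in Tet2-KO cells the members listed were different ones, and none was a satellite window. All 10 fell, with log2 fold changes from -0.69 to -0.51 (SE 0.065 to 0.075, adjusted p from 1.67e-21 to 9.09e-13, edgeR). In that list 67.6% of the 244 windows were called lower and 32.4% higher. The 10 included 2 windows of Gm8038 and 1 each of Gm8828, Gm45368 and Sfi1. At the Gm8038 window chr6:50620901-50621000, the siNC libraries measured 260.0, 261 and 255 RPKM and the siNsun2 libraries 177, 162 and 168 RPKM, a log2 fold change of -0.62 ± 0.069 (SE). In Sfi1 (chr11:3193401-3193500), 1134, 1066 and 1041 RPKM with siNC stood against 807, 734 and 732 RPKM with siNsun2, a log2 fold change of -0.51 ± 0.070 (SE). The Sfi1-locus window chr11:3193101-3193200, higher after siNsun2 in WT, was called lower here (-0.59 ± 0.067, SE), while of the 3 listed windows of that locus, all called lower, 0 were called with TMM factors and 2 were called higher with DESeq2 size factors. At each of the 10 windows all siNsun2 libraries lay below all siNC libraries. The list holds only windows called different, and the share of all 244 so separated was not counted, so nothing particular of the members is read from it. Scaled by TMM over the 244 listed windows, 0 of the 10 were called, with a median log2 fold change of -0.033 and 163 of 244 windows called in all, and with DESeq2 size factors 1 was called, as higher.

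The Tet2-KO siNsun2 means were below the WT siNC means at 7 of these 10 windows and above at 3, at 0.85 to 1.09 times the WT siNC level (median 0.94). The Gm8038 window named above measured 165 ± 9.07 RPKM in WT siNC, 259 ± 3.35 in Tet2-KO siNC and 169 ± 7.65 in Tet2-KO siNsun2 (SD, n = 3). No pair of Tet2-KO siNsun2 libraries differed beyond the sampling noise (chi-square per degree of freedom 0.81 to 0.83 over all listed windows). Their spread thus shows little beyond that noise. The Tet2-KO siNC libraries are shared by both comparisons. No member was in both siNsun2 lists, and only 2 windows of any kind were, fewer than the plan required. Neither Tet2 KO against WT under siNsun2 nor the difference between the siNsun2 effects was therefore fitted. Whether siNsun2 acted differently in the 2 genotypes was not tested.

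**Figure D5:**
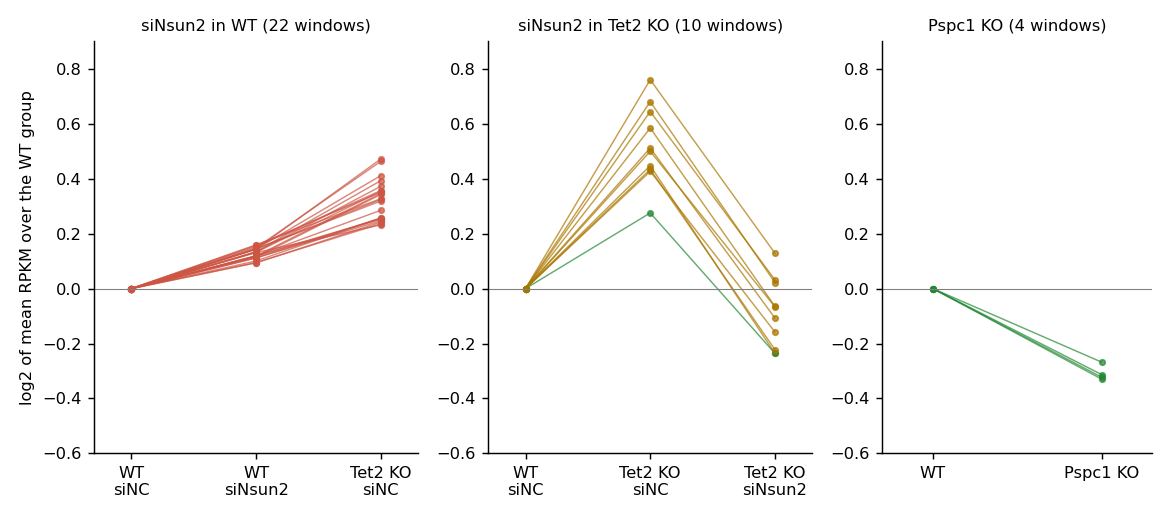
Mean RPKM of members that were listed in another comparison, as log2 relative to the WT group at the left of each panel, with 1 line per window (red satellite, green Sfi1 or Gm12735, brown others) and near-identical libraries counted as 1 sample in a mean. The 22 satellite windows step up from WT siNC through WT siNsun2 to Tet2-KO siNC, the 10 windows of the middle panel are high in Tet2-KO siNC and near the WT level in Tet2-KO siNsun2, and the 4 windows at the right are lower in Pspc1 KO. Panels show library-total scaling: with TMM or DESeq2 size factors over each list, 0 of the 22 were called, 0 of the 10 were called lower, and the 4 were called higher.

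In the Pspc1 experiment, 4 members were listed, all of the Sfi1 and Gm12735 locus, and all 4 fell (log2 fold changes -0.34 to -0.26, SE 0.032 to 0.035, adjusted p from 4.07e-09 to 2.09e-07, edgeR). In that list 81.1% of the 307 windows were called lower and 18.9% higher. At chr11:3193401-3193500 in the Sfi1 exon, WT IP libraries measured 1758, 1757 and 1679 RPKM and Pspc1-KO IP libraries 1348, 1373 and 1380 RPKM, without overlap. WT IP libraries 1 and 2 showed no difference beyond the sampling noise (chi-square per degree of freedom 0.94 over all listed and 1.09 over deep windows), while both differed from library 3, and were counted as 1 sample, giving 1718 ± 55.9 RPKM (SD, n = 2) in WT. The mean was 1367 ± 16.9 RPKM (SD, n = 3) in Pspc1 KO, or 1370.5 ± 14.1 RPKM (SD, n = 2) with its libraries 1 and 2 as 1 sample, which did not differ beyond the sampling noise either. Scaled by TMM or DESeq2 size factors over the 307 windows, the same 4 windows were called higher by edgeR, with medians of 0.17 and 0.22, so their direction depended on the scaling.

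The inputs of that experiment gave the depth of the same windows without the antibody. At the Sfi1 window the input measured 40.8, 46.1 and 43.9 RPKM in WT and 53.8, 48.2 and 51.3 RPKM in Pspc1 KO, where the KO values were higher while the IP values were lower. That did not hold over the locus, since the input of Pspc1 KO was 0.931 to 1.17 times that of WT over the 4 windows. The IP signal at the Sfi1 window was 39.4 times the input in WT and 26.8 times in Pspc1 KO. At the Gm12735 window chr11:3193701-3193800 the ratio was 8.85 in WT and 7.26 in Pspc1 KO. If each read counted in 1 window, even coverage of the 2652783500 known bases of the reference would give 0.377 RPKM, and the input stood far above that at these windows, although the reference holds their middle 32 bases once.

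No satellite member was in the Pspc1 list, but 14 other windows of the same satellite were, 13 on contig JH584304 and 1 on chromosome 9. All 14 were called lower in Pspc1 KO by edgeR, with log2 fold changes from -0.54 to -0.13. Their mean inputs ran from 12.2 to 170 RPKM in WT and from 12.3 to 156 RPKM in Pspc1 KO, and their mean IP signals from 167 to 2038 RPKM and from 120 to 1869 RPKM. These windows were in the list of the Pspc1 comparison only. None was in that of Tet2 KO. The direction depended on the scaling: with TMM factors over the list 10 of the 14 were called higher and 0 lower, and with DESeq2 size factors 11 and 0. Of the other families, 2 windows related to Gm4782 and Gm8038 that were no members were called higher in Pspc1 KO (log2 fold changes 0.21 and 0.32), and also with TMM factors (median 0.76) and DESeq2 size factors (median 0.80). The 2 windows related to Gm8828 were called lower (-0.72 and -0.69), also with TMM factors (median -0.22) but not with DESeq2 size factors (median -0.17). Of the 7 listed windows of the Sfi1 and Gm12735 sequence, the 3 that were no members were called lower like the 4 members, and all 7 were called higher with either set of factors.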

How the data were processed

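MeDIP-seq of 24 mES cell samples in 8 groups of 3 was used, of which 18 were IP and 6 input libraries. Per the submitters' processing notes, the authors used Trimmomatic 0.39, Bowtie2 2.4.1, Picard and edgeR on mm10, and they tested 100 bp windows with MEDIPS (Bonferroni adjustment, no copy-number correction). Duplicates were removed, which caps the signal of near-identical fragments. The deposited tables held only windows with an adjusted p-value under 0.1. The deposited counts are raw read counts per window, the RPKM values were scaled by the authors to window length and library size, and the relative methylation score is a fraction from 0 to 1 computed by the authors. The log2 fold changes and p-values of the authors' own comparison, and their group means, were not used.

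Library totals were recovered as count over RPKM. Fold changes are log2 of mean RPKM plus 0.1. Counts were refitted per table with edgeR 4.0.16 (quasi-likelihood, library totals as sizes, Benjamini-Hochberg at 0.05) in R 4.3.3, with DESeq2 1.42.0 as an alternative, after a check on simulated data. Since each list was selected on the libraries refitted, these tests are not independent evidence. Sequences came from RefSeq's GRCm38.p6 (mm10) and genes from GENCODE vM21, and in the sequence CpG counts equalled the deposited ones at 100% of 14618 windows. Unplaced contigs were identified by that match. One locus is not reported here. Named regions were the 10 deepest, the 10 largest and 3 smallest by fold change, the 3 longest, and any in another list or in an exon of a protein-coding gene with at most 10 reference copies, and the other windows in the text were chosen after their values were seen. The members, lists and the sequence families were chosen with earlier results of these data known. Pairs of replicates count as 1 sample if a chi-square test of windows with 20 or more reads found no difference over all and over deep windows of every list that held them while both differed from the third library (p under 0.05). In Pspc1 KO IP, libraries 1 and 2 did not differ, but library 2 did not differ from library 3 either, so all 3 were kept, and summing 1 and 2 was tried after seeing the data. Same-numbered libraries correlated above the limit of 0.1 after siNsun2 in WT (0.85, 0.33 and 0.58) and in Tet2 KO (0.27, 0.18 and 0.11), which is a pattern in the data and not in the labels. In WT, siNsun2 library 2 with siNC library 3 gave 0.66 and siNsun2 library 3 with siNC library 2 gave 0.33, so there library 1 stood apart from 2 and 3. Same-numbered libraries for Tet2 KO passed the limit at library 1 only, and narrowly (0.1004, 0.024 and 0.030). None passed it for Pspc1 KO (0.013, -0.077 and -0.15).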

Additional observations from a re-analysis of the deposited data

How the results depend on the processing

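The number of members stayed between 161 and 248 when the depth limit was 1200 or 300 reads, was 172 with at least 200 reads in every WT library and 178 with the direction taken from counts, and ran from 178 to 180 without 1 library. The median log2 fold change of the members in Tet2 KO was 2.20 with TMM factors and 2.17 with DESeq2 size factors over the listed windows, whose own median was -2.59, 0.33 with a limit of 300 reads, and 0.28 for members with 1 reference copy. Leaving out 1 library moved it from 0.27 to 0.31. For siNsun2 in WT, 0 of 22 members were called by edgeR with TMM factors and 0 with DESeq2 size factors, and 19 to 22 without 1 library. For siNsun2 in Tet2 KO, 0 of 10 were called with TMM factors and 1, as higher, with DESeq2 size factors, against 10 without any 1 library. For Pspc1 KO, 4 were called without any 1 library, and the 4 were called higher with TMM factors and 4 higher with DESeq2 size factors. These factors centre each list on its own windows. The DESeq2 Wald test gave 22, 10 and 4 calls, and 4 Pspc1 members were called lower with libraries 1 and 2 summed in both groups, a setting chosen after seeing the data. With the replicate number as a block, 22, 10 and 4 members were called and the median in Tet2 KO was 0.29, so the block changed no call. In Tet2 KO, where only library 1 passed the limit for pairing, and narrowly, it is only a value. No libraries of the siNsun2 experiment in Tet2 KO met the rule for summing, so that setting gave no value. Among the Tet2-KO siNsun2 libraries no pair differed beyond the sampling noise, so none stood apart as the rule requires. The 2 comparisons that needed windows in both siNsun2 lists were not fitted under any setting.

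The members were chosen for depth, so they give no view of shallower windows of the same sequences. The lists hold only windows already called, inputs were not analysed for the siRNA groups, and multi-copy windows cannot be assigned to a genomic position.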
